A study of Mus musculus with 4 samples.

Results

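The set described here was listed as outer dense fibre and fibrous sheath genes of the mouse sperm tail. It holds the outer dense fibre genes Odf1, Odf2, Odf3 and Odf4, the fibrous sheath genes Akap3 and Akap4, and the midpiece gene Smcp. The 3 others, Oaz3, Cabs1 and Fscn3, are late germ cell genes and are not taken here as genes of the fibres or sheath. The set was taken as the rows of the deposited count table that carry these 10 symbols, 10 of 25265 genes in all. All 10 passed the filter on low counts. Testis RNA of C57BL/6 mice at postnatal day 56 was sequenced after depletion of ribosomal RNA, with 2 control libraries and 2 libraries of the genotype Ythdf2-vKO, called vKO-labelled below. The series title describes germ cell-specific mutants of Ythdf2. The labels give neither the deleted segment nor the driver of the deletion, and they do not say whether the libraries came from separate animals, so p-values measure the spread between these libraries only.

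The outer dense fibres are keratin-like rods that run along the axoneme of the mammalian sperm tail, and the fibrous sheath surrounds them in the principal piece. Both are built by elongating spermatids, in which transcription stops as the nucleus condenses, so that many of their proteins are made from stored mRNA. YTHDF2 is a cytoplasmic reader of N6-methyladenosine (m6A), a methyl mark on mRNA, and directs marked transcripts to decay.

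RefSeq promoter windows on GRCm38.p6, from 250 bases before to 50 bases after a transcription start, were matched by symbol for 8 of the 10 genes, in 12 windows. Akap3 and Akap4, on chromosomes 6 and X, shared an identical run of 20 bases just upstream of their starts, which is the reason their promoters are shown. The run began 34 bases before the start of Akap3 and 47 bases before that of Akap4, and it is in capitals in the 120 bases before each start, at chr6:126852978-126853097 and chrX:7067395-7067514, both on the plus strand.
Akap3: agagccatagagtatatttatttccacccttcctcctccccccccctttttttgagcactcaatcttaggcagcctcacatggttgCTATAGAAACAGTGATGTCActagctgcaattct
Akap4: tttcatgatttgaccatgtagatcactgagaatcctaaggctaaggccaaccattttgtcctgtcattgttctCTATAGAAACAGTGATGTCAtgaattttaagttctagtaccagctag

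Of the 32851 promoter windows searched on both strands, 2 held the whole run, those of Akap3 and Akap4. Among the 59 pairs of windows from different genes of the set, the next longest shared run was 14 bases and the median was 9 bases. The run ends in TGATGTCA, which differs by a base from TGACGTCA, the palindromic cyclic AMP response element that CREM-type factors bind in spermatids. TGATGTCA or its reverse complement TGACATCA was found in windows of 3 of the 8 genes, Akap3, Akap4 and Smcp, against 4.18% of the 27025 genes with a window. The motif was taken from the run shared by Akap3 and Akap4, so that Smcp is the only gene that the search added. TGACGTCA was found in none of the 12 windows and in 1.79% of all windows. In Smcp the motif lay 25 bases after the RefSeq start, on the minus strand within chr3:92589031-92589060. Akap3 held another copy across its start, within chr6:126853086-126853115. The GENCODE span of Smcp ends at 92588997, so that by GENCODE the motif lies upstream of the gene. The Smcp motif and this Akap3 copy are shown with the motif in capitals.
Smcp: ggagagtattaTGATGTCAtaaaagagctg
Akap3, copy at the start: agctgcaattcTGATGTCActccctagtgc

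Because YTHDF2 binds m6A, the transcripts were also searched, on their own strand, for GGACT, the commonest core of the m6A consensus. In the longest protein-coding GENCODE M21 transcript of each gene there were 17 such sites, 12 of them in coding sequence. Akap3 held 5, Odf2 and Fscn3 held 3 each, and Odf1 and Akap4 held none, whereas 8.98% of the tested protein-coding genes held none. The median was 0.843 sites per kilobase in the 10 genes and 1.05 over all tested protein-coding genes. The files hold no measurement of methylation. The coding sites of Fscn3 and Cabs1, the genes with the lowest fold changes below, are shown with GGACT in capitals, at transcript bases 239, 634 and 894 of Fscn3 and 1160 of Cabs1.
Fscn3 site 239: tggctgaggtGGACTggatacacag
Fscn3 site 634: taccatatgtGGACTcccaggccag
Fscn3 site 894: acggcctcgaGGACTcgtggcccta
Cabs1 site 1160: aggacaaggaGGACTtatctaccac

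The libraries held 24862518 to 29561182 counts. Values are given as CPM, read counts scaled by the TMM method to a common library size. The targeted gene Ythdf2 had 51.0 and 53.5 CPM in the controls and 66.3 and 67.0 CPM in the vKO-labelled libraries. The log2 fold change of Ythdf2 was 0.35 (SE 0.13), with an adjusted p of 0.238 by edgeR's quasi-likelihood test. Counts of the targeted gene were thus not reduced in the vKO-labelled libraries and do not bear out the label, and every direction below is between libraries as labelled. Counts over a whole gene do not show a deleted exon, and reads may be shared with near copies of Ythdf2: Gm6823 matches it at 95.2% of 1840 aligned bases, and Gm8401 does so at 96.3% of 1740.

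These genes were among the most counted of the testis, in reads that also grow with transcript length. Odf2 had the highest mean CPM of all 21132 genes tested, Akap4 ranked 15th, Oaz3 32nd and Smcp 33rd, and Odf3 was the lowest of the set at rank 1188. Together they took 1.15% and 1.05% of all counts in the controls and 1.003% and 1.03% in the vKO-labelled libraries. Levels per length were set side by side per kilobase of the longest protein-coding transcript. On that scale of CPM per kilobase, control means ran from 1389 for Smcp, 1365 for Oaz3, 1020 for Odf1 and 903 for Odf2 through 605 for Akap4, 405 for Cabs1 and 310 for Akap3 to 218 for Odf4, 154 for Fscn3 and 125 for Odf3. The first 2, Smcp and Oaz3, overlapped in their control libraries, at 1241 and 1536 for Smcp and 1310 and 1419 for Oaz3, as did Odf1 (932 and 1108) and Odf2 (806 and 1000). With the longest annotated transcript instead, which for Oaz3 is a retained-intron form, Oaz3 stood at 566 CPM per kilobase, below Akap4, and Odf2 at 833.

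**Figure D1:**
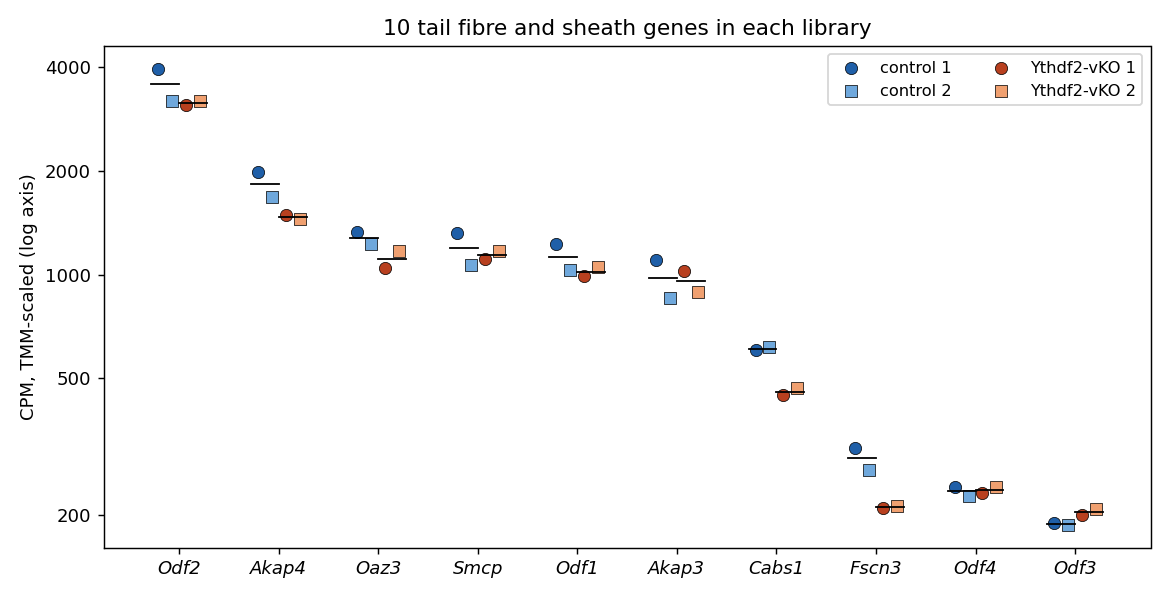
CPM (TMM-scaled, log axis) of the 10 genes in the 4 libraries, ordered by control mean. Points are libraries and short bars are group means (n = 2). Cabs1 and Fscn3 are separated between groups, at 604 and 615 against 447 and 468 CPM for Cabs1, whereas control library 1 stands apart from the other 3 for Odf2.

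The comparison asked how these transcripts differ between the labelled genotypes. None of the 10 genes passed edgeR's quasi-likelihood test at an adjusted p of 0.05, the threshold for calling a gene, whereas 83 of 21132 genes (0.393%) did, 0.279% being higher and 0.114% lower. A DESeq2 Wald test called none of the 10 either, against 0.859% of all 25265 genes, a share that applies to its calls in every list below. At an unadjusted p under 0.05, 3 of the 10 were lower in the vKO-labelled libraries (Fscn3, Cabs1 and Akap4) and 0 were higher, against 6.47% and 7.65% of all genes tested. By the fitted value, 8 of the 10 lay below 0 and Odf3 and Odf4 above it, against 49.7% of all genes below 0. The median log2 fold change was -0.16, against 0.00265 over all genes tested. With library totals alone 6 lay below 0 and the median was -0.0917, with library sizes from round spermatid markers 7 did and it was -0.11, and with each GC offset all 10 did. Among the 1178 other genes with a mean CPM, not scaled by length, at or above that of Odf3, 76.9% lay below 0, their median was -0.12, and 197 were lower at an unadjusted p under 0.05 and 16 higher. The share of values below 0 among the 10 genes thus lay near that among other highly counted genes. In whole testis, fewer cells of a type and less RNA per cell cannot be told apart.

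Fscn3 (ENSMUSG00000029707, chromosome 6, 28427789 to 28438622, plus strand), the testis form of the actin-bundling protein fascin, had the lowest fold change. It stood at 315 and 271 CPM in the controls and at 210 and 213 CPM in the vKO-labelled libraries. Both of the latter lay below both controls, and they differed from each other by far less than the controls did. The means were 293 ± 30.6 and 212 ± 1.94 CPM (SD, n = 2 each), 27.7% lower by the fitted log2 fold change of -0.47 (SE 0.12, unadjusted p = 0.00219, adjusted p = 0.127, edgeR). Fscn3 was called by edgeR with an offset for transcript GC content (log2 fold change -0.56, adjusted p = 0.0416), where 0.686% of all genes tested were called. Each fit without a control library has 1 control left, takes the spread within groups from the vKO-labelled pair, and assumes that the lone control varies alike. Fits without a vKO-labelled library take the spread from the control pair alike, and both points hold for every such value below. With control library 1 or 2 left out, Fscn3 had log2 fold changes of -0.37 and -0.57. With the first or second vKO-labelled library left out, Fscn3 had values of -0.46 and -0.48. Its adjusted p ran from 0.000141 to 0.736 over its 15 alternatives. Gcc1 overlaps the start of Fscn3 on the opposite strand with 1134 to 1502 counts per library, and the use of strand in counting is not given in the sources used here.

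Cabs1 (ENSMUSG00000007907, chromosome 5, 87979439 to 87981544, plus strand) encodes a calcium-binding protein of elongating spermatids. It had 604 and 615 CPM in the controls and 447 and 468 CPM in the vKO-labelled libraries, with no overlap and little spread within either group. The log2 fold change was -0.41 (SE 0.11, unadjusted p = 0.00317, adjusted p = 0.144, edgeR), a level 24.9% lower. Its value changed little, from -0.45 to -0.33, over 15 alternatives, with an adjusted p of 0.00319 to 0.825. With control library 1 or 2 left out its log2 fold changes were -0.43 and -0.40, and with the first or second vKO-labelled library left out -0.38 and -0.45. Cabs1 lies inside the annotated gene Gm28434 on the same strand, which has no row among the deposited counts.

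Akap4 (ENSMUSG00000050089, X chromosome, 7067519 to 7078609, plus strand), the main scaffold of the fibrous sheath and an anchor of protein kinase A, had 1980 and 1676 CPM in the controls and 1487 and 1446 CPM in the vKO-labelled libraries. The groups did not overlap, and the log2 fold change was -0.32 (SE 0.12, unadjusted p = 0.0216, adjusted p = 0.262, edgeR). Control library 1 was the highest, and the log2 fold change was -0.20 without it and -0.43 without control library 2. With the first or second vKO-labelled library left out it was -0.34 and -0.30. Akap3 (ENSMUSG00000030344, chromosome 6, 126853098 to 126874308, plus strand), the related anchor that is laid down earlier in the sheath, had 1100 and 856 CPM in the controls and 1024 and 891 CPM in the vKO-labelled libraries. Its groups overlapped fully, its log2 fold change was -0.0311 (SE 0.14), and its sign turned with the scaling and with the library left out. Akap3 and Akap4, whose promoters share the printed run, thus had log2 fold changes of -0.0311 and -0.32, a difference that was not tested.

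Of the outer dense fibre genes, Odf1 (ENSMUSG00000061923, chromosome 15, 38219203 to 38226735, plus strand) encodes the cysteine-rich main fibre protein needed to hold head and tail together. It had 1224 and 1030 CPM in the controls and 988 and 1051 CPM in the vKO-labelled libraries. Odf2 (ENSMUSG00000026790, chromosome 2, 29889221 to 29931746, plus strand), a coiled-coil fibre protein whose somatic form sits on centriole appendages, had 3959 and 3192 CPM against 3114 and 3193 CPM. In both genes control library 1 alone was high and the other 3 libraries lay close together. The log2 fold changes were -0.14 (SE 0.12, adjusted p = 0.663) for Odf1 and -0.18 (SE 0.13, adjusted p = 0.573) for Odf2 by edgeR. Without control library 1 they were -0.0211 and -0.0242, and without control library 2 they were -0.26 and -0.33. Leaving out the first vKO-labelled library gave -0.10 and -0.16, and leaving out the second gave -0.19 and -0.20.

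Odf3 (ENSMUSG00000025482, chromosome 7, 140847805 to 140851018, plus strand), a tail protein also known as Shippo1, had 190 and 188 CPM in the controls and 200 and 208 CPM in the vKO-labelled libraries. It was the only gene of the set whose groups were apart in the higher direction, and edgeR put its log2 fold change at 0.11 (SE 0.12) with an adjusted p of 0.728. With the GC offset the value was -0.0501. Odf3 lies inside the annotated gene Gm45785 on the opposite strand, which has no row among the deposited counts. Odf4 (ENSMUSG00000032921, chromosome 11, 68921835 to 68927081, minus strand), another tail component, had 242 and 228 CPM against 232 and 242 CPM. Its groups overlapped, its log2 fold change of 0.0137 (SE 0.12) was the nearest to 0 in the set, and its sign turned with the GC offset and when control library 2 or the second vKO-labelled library was left out. Odf3 and Odf4 varied least over the 4 libraries, by 0.15 and 0.0871 on the log2 scale, against 0.31 to 0.58 in the other 8 genes.

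Smcp (ENSMUSG00000074435, chromosome 3, 92583867 to 92588997, minus strand) encodes the cysteine-rich protein of the sperm mitochondrial capsule and is a classical case of an mRNA stored for delayed translation. It had 1323 and 1069 CPM in the controls and 1112 and 1169 CPM in the vKO-labelled libraries, and the groups overlapped. The log2 fold change was -0.0682 (SE 0.13, adjusted p = 0.868, edgeR), and 0.0866 without control library 1. Oaz3 (ENSMUSG00000028141, chromosome 3, 94432414 to 94443915, minus strand) encodes the germ cell antizyme, an inhibitor of ornithine decarboxylase made by ribosomal frameshifting. It had 1327 and 1225 CPM against 1043 and 1173 CPM, with no overlap, and edgeR gave a log2 fold change of -0.20 (SE 0.12) at an adjusted p of 0.482. Without the first vKO-labelled library its value was -0.12, and with the GC offset it was -0.13 by the longest transcript, a retained-intron form, and -0.25 by the longest protein-coding one. Tdrkh, with 256 identical transcript bases, and Mrpl9 overlap Oaz3 on the opposite strand, and held 1098 to 1638 and 507 to 728 counts per library against 27911 to 36731 for Oaz3.

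**Figure D2:**
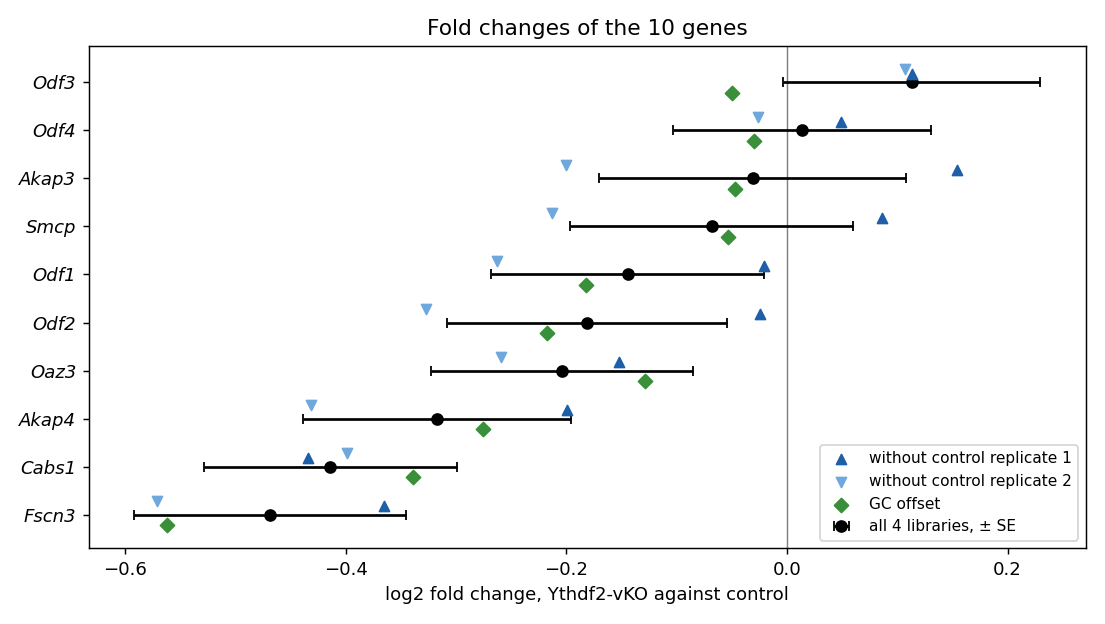
Log2 fold change of each gene (vKO-labelled libraries against control, x axis) with its standard error, in the fit of all 4 libraries, and the value without either control library or with the GC offset. Fscn3, Cabs1, Akap4, Oaz3, Odf2 and Odf1 stay below 0 at every marker, whereas the triangles for Smcp, Akap3 and Odf4 fall on both sides of 0.

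Groups were apart in the lower direction in 4 genes (Fscn3, Cabs1, Akap4 and Oaz3) and in the higher direction in 1 (Odf3), against 22.6% and 22.7% of all genes tested, so that 5 of the 10 were apart in either direction against 45.3%, a share near that of all genes. With 2 libraries against 2, an exact permutation test of a single gene cannot give a p below 0.333. In 5 genes (Odf1, Odf2, Odf4, Akap3 and Smcp) the controls differed from each other by more than the groups did. The gap between the control libraries was largest in Akap3, at 0.36 on the log2 scale, and smallest in Odf3, at 0.0147. Control library 1 was the highest of the 4 libraries in 7 genes. Without control library 1, 6 of the 10 lay below 0 and the median was -0.0226, and without control library 2, 9 lay below 0 and the median was -0.26.

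Markers of elongating spermatids, listed without any of these 10 genes, had a like pattern over the libraries. Their median deviation from the 4-library mean was 0.27 in control library 1 and -0.0826, -0.0962 and -0.0787 in the other libraries, in the order control 2, Ythdf2-vKO 1 and 2. The median for the 10 genes was 0.19, -0.0518, -0.109 and -0.047. The summed level of the 13 elongating markers was 12285 and 9381 CPM in the controls and 9826 and 9798 CPM in the vKO-labelled libraries, and that of the 10 genes was 12262, 10349, 9857 and 10055 CPM. Round spermatid markers showed no such step, with summed levels of 2686 and 2645 CPM in the controls and 2489 and 2668 CPM in the vKO-labelled libraries and a median log2 fold change of -0.0123. Other tail genes, listed below, showed no such step in their median deviations either. In the same library order these were 0.0769, 0.0467, -0.081 and -0.0016 for the other fibre and sheath genes. They were 0.0477, 0.124, -0.139 and -0.0476 for the mitochondrial sheath list, and -0.0294, 0.144, -0.178 and 0.0494 for the tektins. Control library 2 was the highest in the mitochondrial sheath and tektin lists. Transcript GC content also moved with the libraries. Across genes, its Spearman correlation with a library's deviation was 0.0283 and -0.435 in the controls and 0.275 and 0.218 in the vKO-labelled libraries. By the longest annotated transcript, the GC content of the 10 genes ran from 42.1% for Oaz3, a retained-intron form, to 56.8% for Odf3. By the longest protein-coding transcript, it ran from 42.4% for Cabs1 to 57.4% for Odf3, with Oaz3 at 52.2%. The part of either in the fold changes above was not tested beyond the GC offset.

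**Figure D3:**
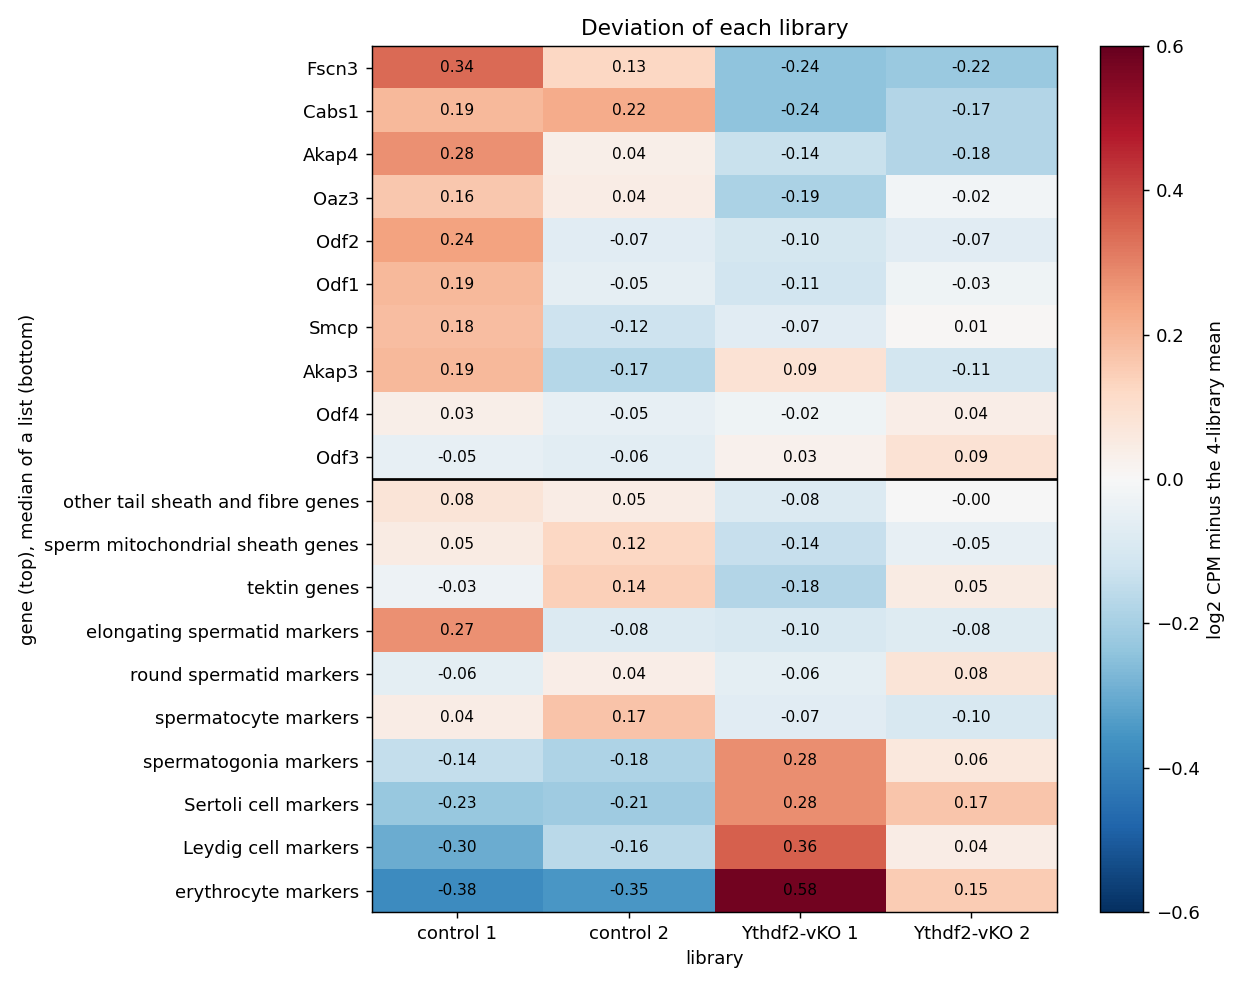
Log2 CPM of each library minus the 4-library mean, for each of the 10 genes (above the line) and as the median of each list (below it). Control library 1 is high for Odf1, Odf2, Smcp, Akap3 and the elongating spermatid markers (0.27), and both control libraries are high for Fscn3 and Cabs1.

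Other genes of the same structures were read from a list of 23 outer dense fibre and fibrous sheath genes or partners, of which 22 were tested. None was called by edgeR, and 1, Txndc2, was called by the DESeq2 Wald test. At an unadjusted p under 0.05, 4 were lower (Txndc2, Prkar2a and, named after their values were seen, Hook1 and Spag5) and 0 were higher. Over all genes tested, 6.47% were lower and 7.65% higher at that threshold, shares that apply to every list below. Among the 1178 other genes counted at least as highly as Odf3, 197 were lower and 16 higher, but several genes of this list, such as Akap14 and Odf3b, were counted below Odf3. The median log2 fold change was -0.10, with 13 below 0 and 9 above. Txndc2, a thioredoxin of the fibrous sheath, had 654 and 679 CPM in the controls and 471 and 498 CPM in the vKO-labelled libraries, with a log2 fold change of -0.46 by edgeR (SE 0.12, unadjusted p = 0.00157, adjusted p = 0.112), close to those of Fscn3 and Cabs1. Prkar2a, the regulatory subunit of the kinase that AKAP proteins anchor, had 355 and 279 against 234 and 253 CPM (log2 fold change -0.38, SE 0.14, adjusted p = 0.232, edgeR). Values went the other way for Cabyr, a calcium-binding fibrous sheath protein named here after its values were seen, at 380 and 349 against 432 and 429 CPM (log2 fold change 0.24, unadjusted p = 0.061, edgeR).

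All 7 genes of a list named for the sperm mitochondrial sheath lay below 0, with a median of -0.16. None was called by edgeR or DESeq2. Spem1 and Spata19 were lower at an unadjusted p under 0.05, with log2 fold changes of -0.28 each (SE 0.12 each, adjusted p = 0.301 and 0.296, edgeR). Spata19 encodes a mitochondrial sheath protein. Spem1 acts in the removal of cytoplasm from the neck region, so that the list is not of sheath genes alone. The 5 tektin genes, whose products line the axoneme, had a median of -0.0903, with 0 at an unadjusted p under 0.05. Among the elongating spermatid markers, 10 of 13 lay below 0 with a median of -0.25, none was called by edgeR or DESeq2, and 4 were lower at an unadjusted p under 0.05 (Prm3, Tnp1 and, named after their values were seen, Prm1 and Prm2). Prm3 (107 and 95.7 against 69.8 and 80.3 CPM) and the transition protein gene Tnp1 (580 and 467 against 404 and 396 CPM) had the largest of these differences, with log2 fold changes of -0.43 and -0.39 (SE 0.13 each, adjusted p = 0.175 and 0.209, edgeR).

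Lists for the other cell types of the testis were read in the same way. Of 14 round spermatid markers, 8 lay below 0 and 6 above, with a median of -0.0123. At an unadjusted p under 0.05, 0 of them were higher and 1 was lower, the zona pellucida-binding protein gene Zpbp2 (log2 fold change -0.39, SE 0.12, adjusted p = 0.178, edgeR). Of 14 spermatocyte markers, 13 lay below 0 with a median of -0.21, and the meiotic kinase gene Aurkc (-0.53, adjusted p = 0.144) and the cyclin gene Ccna1 (-0.38, adjusted p = 0.196) had the largest differences by edgeR. All 10 Sertoli, 8 Leydig, 10 spermatogonial and 4 tested erythrocyte markers lay above 0, with medians of 0.39, 0.41, 0.30 and 0.76. Of these, Wt1, a Sertoli cell transcription factor, was called (log2 fold change 0.71, SE 0.13, adjusted p = 0.0418, edgeR). The largest differences among the others that met the naming rule were 0.58 for Amhr2, 0.71 for Hsd17b3, 0.66 for Cyp11a1, 0.63 for Gfra1, 0.41 for Kit, 0.83 for the endothelial gene Cdh5, 0.80 for Hbb-bs and 0.71 for Hba-a1, none of them called by edgeR. Among the marker lists the DESeq2 Wald test called Wt1 and Amhr2 and, outside the naming rule, the Sertoli gene Cldn11 and the Leydig gene Nr5a1. Summed Sertoli marker levels were 1100 and 1146 CPM in the controls and 1568 and 1388 CPM in the vKO-labelled libraries, and summed erythrocyte levels were 26.7 and 32.3 against 42.0 and 39.0 CPM. Medians were 0.40 for 6 endothelial (4 above 0 and 2 below, with Egfl7, named after its values were seen, at -0.43), 0.0183 for 7 macrophage and -0.0507 for 6 peritubular myoid markers, and no epididymis marker passed the filter. The part of cell makeup in the lower values of the 10 genes was not tested.

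**Figure D4:**
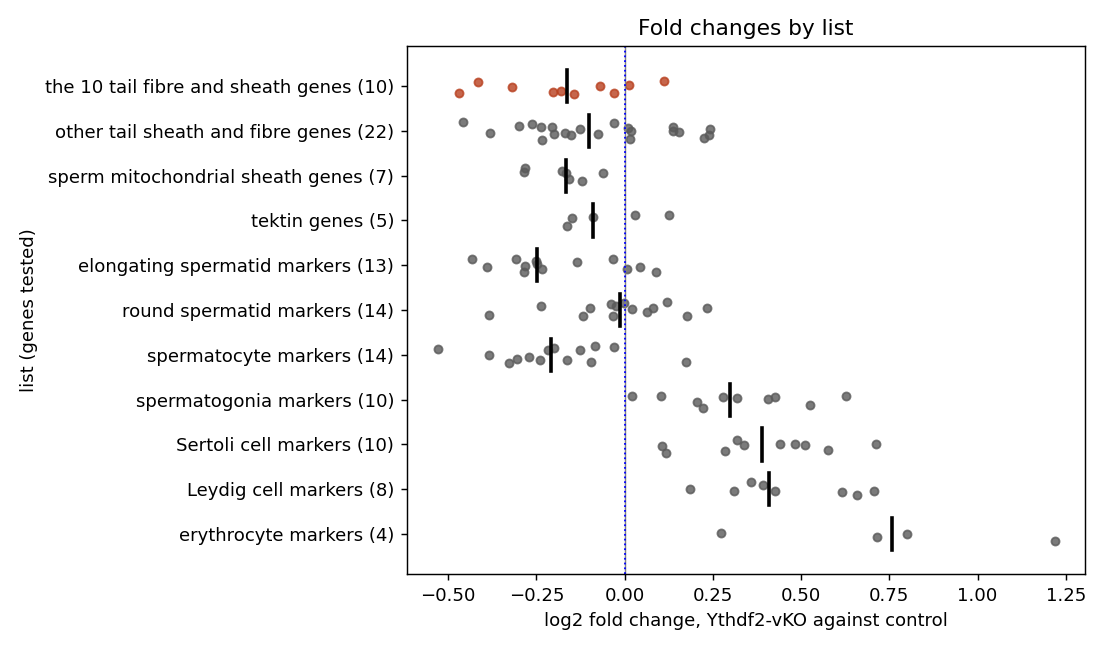
Log2 fold change (vKO-labelled libraries against control) of each tested gene by list. Points are genes, black bars are list medians, and the dotted line is the median of all genes tested. The 10 genes of the set are labelled as tail fibre and sheath genes. Their median (-0.16) lies with that of the mitochondrial sheath list (-0.16) and between the elongating (-0.25) and round (-0.0123) spermatid markers.

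The 5 genes whose deviations over the 4 libraries lay nearest to the average of the 10 genes, among 10342 others with a mean of at least 10 CPM, were Gm11149, Aqp11, Rab27a, Stx17 and Fbxo30. Their Euclidean distances ran from 0.00903 to 0.0192 on the log2 scale, and those of the 10 genes themselves from 0.0648 to 0.31. Aqp11, an aquaporin channel, stood at 626 and 544 CPM in the controls and 514 and 528 CPM in the vKO-labelled libraries. Likeness over 4 libraries is a description of these libraries only.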

How the data were processed

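Per the submitters' processing notes, HISAT2 2.1.0 and HTSeq 0.6.1p1 were used, with no settings; the build is not given in the sources used here. The authors deposited raw read counts per gene and, per the file headers, a mean normalized count (a signal that is never negative), a log2 fold change with its error, a Wald statistic (a score) and a p-value with its adjusted form, as DESeq2 names them. The genes and lists were chosen with earlier results of these data known.

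Counts were tested with edgeR 4.0.16 (R 4.3.3): TMM scaling, the filterByExpr filter, a quasi-likelihood fit with robust estimation on genotype, and Benjamini-Hochberg adjustment over 21132 genes. The steps were tested on simulated data. DESeq2 1.42.0 was an alternative. The controls differed from each other by more than sampling noise (chi-square per degree of freedom 21.2), as did the vKO-labelled libraries (8.42). No libraries were merged, and n = 2 counts libraries, not animals. Intervals and floors in counts would cover counting error only, and none was needed.

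Coordinates, lengths and GC content came from GENCODE M21 (GRCm38), whose build may differ from the authors', and promoters from RefSeq (GRCm38.p6). Odf1 and Oaz3 were not matched there. The longest protein-coding transcript of each of the 10 genes was searched against the longest transcript of every other gene. Apart from that of Tdrkh, none was at least 90% identical over 200 bases. Beside the 10 genes and Ythdf2, the text names called genes of the 14 lists, the 2 largest differences per list at an unadjusted p under 0.05 and 1 CPM, and the 5 nearest profiles. Motifs were chosen after the sequences were seen.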

Additional observations from a re-analysis of the deposited data

How the results depend on the processing

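No alternative called any of the 10 genes higher in the vKO-labelled libraries, and Fscn3, Cabs1, Akap4, Oaz3, Odf1 and Odf2 kept values below 0 in all 15 alternatives. The number of the 10 genes called, 0 as reported, was 1 (Fscn3) with the GC offset, with the GC offset plus replicate block, and with a GC offset from protein-coding transcripts, which was added after the data were seen. It was 2 (Cabs1 and Fscn3) with the replicate block alone, and 0 to 4 when a library was left out. Over all genes tested in the same fits, 0.686% were called with the GC offset, 2.79% with the GC offset plus replicate block, 0.625% with the protein-coding GC offset, 4.81% with the replicate block, and 0.16% to 6.82% when a library was left out, against 0.393% as reported. Both groups use the replicate numbers 1 and 2, but the labels do not say what these mark, so they were not taken to pair the libraries. Across 15655 genes, the deviations of control 1 and Ythdf2-vKO 1 from their own group means correlated at 0.139. With 2 libraries per group this is a single contrast, which cannot decide whether the libraries are paired. The replicate block gave log2 fold changes of -0.41 for Cabs1 (adjusted p = 0.0356) and -0.46 for Fscn3 (adjusted p = 0.0127), within the ranges given above. The sign of Akap3 turned with library totals alone (0.0409) and with library sizes from round spermatid markers (0.0232), and its value ran from -0.20 to 0.15 with a library left out. Smcp was 0.0033 with library totals alone and ran from -0.21 to 0.0866 with a library left out. Odf3 was -0.0501 with the GC offset, -0.0496 with the GC offset and replicate block and -0.061 with the protein-coding GC offset, and Odf4 was -0.0302, -0.0305 and -0.0137 in the same fits and ran from -0.0264 to 0.049 with a library left out. The median of the 10 genes ran from -0.26 to -0.0226 with a library left out. The cause was not tested.

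Over all genes, 59 were called higher and 24 lower. With library totals alone there were 181 and 37, with round spermatid library sizes 112 higher and 29 lower, with a DESeq2 Wald test 137 and 80, without robust estimation 50 higher and 15 lower, with the GC offset 79 higher and 66 lower, and with the protein-coding GC offset 71 higher and 61 lower. The replicate block called 627 higher and 390 lower, and the GC offset plus replicate block called 268 higher and 322 lower. Leaving out a library gave 30 to 1048 higher and 5 to 523 lower. Higher genes were 71.1% of the reported calls, 83.0% with library totals alone, 54.5% with the GC offset and 45.4% with the GC offset plus replicate block. Ythdf2 was above 0 in all 15 alternatives, and with the GC offset plus replicate block it passed the threshold (0.39, adjusted p = 0.0432, range 0.0432 to 0.866).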
